A study of Mus musculus with 8 samples.

Results

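The genes described here are 10 components of the NRF2 antioxidant system, measured in glomeruli isolated from mouse kidney. They were chosen by name: Nfe2l2, Keap1, Nqo1, Hmox1, Gclc, Gclm, Txnrd1, Srxn1, Slc7a11 and Gpx1. All 10 were found among the 22180 genes of the arrays, each read from the probe set with a single gene symbol and the highest mean over 8 arrays. Every animal was induced with doxycycline for 3 weeks from the age of 8 weeks and was 13 weeks old when glomerular RNA was taken, and each sample was hybridised to 1 Affymetrix array. The groups were control (n = 2), mice of the line Tln1 Pod-rtTA TetO-Cre given vehicle for 2 weeks (Tln1 vehicle, n = 3), and mice of that line given valproic acid, an inhibitor of histone deacetylases, for 2 weeks (Tln1 VPA, n = 3). Per its name, the line has a doxycycline-driven Cre in podocytes that acts on Tln1, the gene of talin 1, which links integrins to actin. The labels give the controls no further genotype and do not say whether they received vehicle, so genotype and vehicle may both differ in a comparison with control. They also do not say whether arrays stand for separate animals, so the p values rest on a spread between arrays that could be technical in origin.

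NRF2, the product of Nfe2l2, is a transcription factor that switches on genes against oxidants and electrophiles. In unstressed cells KEAP1 binds NRF2 and hands it to a CUL3 ubiquitin ligase, which marks it for breakdown. Oxidants and electrophiles modify cysteines of KEAP1, NRF2 then builds up, pairs with small MAF proteins and binds antioxidant response elements near its target genes. Much of this control acts on the protein, so the mRNA of Nfe2l2 does not report how active NRF2 is. In the kidney, proximal tubule cells make many of these enzymes in large amounts.

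The core of the antioxidant response element, TGACNNNGC (GCNNNGTCA when it lies on the other strand), was looked for in RefSeq promoter windows, which run from 250 bases before to 50 bases after a start site (build GRCm38.p6). Windows were available for 8 of the 10 genes, with 10 windows in all since Txnrd1 has 3 start sites. The names Hmox1 and Gclc had none. The core was present in 4 of the 10 windows, beside 12.39% of the 32851 windows of all genes, in either orientation. The 4 matches are shown because they place the NRF2 recognition letters in Nfe2l2 itself, in a glutathione synthesis gene and in both thioredoxin-system genes, whose levels follow. Each is written 5′ to 3′ on the strand of its gene, with the core in capitals.
Nfe2l2: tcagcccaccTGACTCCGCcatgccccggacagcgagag
Gclm: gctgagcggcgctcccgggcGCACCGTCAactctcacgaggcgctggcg
Txnrd1: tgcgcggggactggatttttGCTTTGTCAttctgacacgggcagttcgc
Srxn1: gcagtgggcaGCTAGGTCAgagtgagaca
The Nfe2l2 stretch lies at chr2:75704875-75704913 on the minus strand, with the core at -240 to -232 from the start site. The Gclm stretch lies at chr3:122245403-122245451 on the plus strand, with the core at -134 to -126. The Txnrd1 stretch, before the second of its start sites, lies at chr10:82859094-82859142 on the plus strand, with the core at -92 to -84. The Srxn1 stretch lies at chr2:152105542-152105570 on the plus strand, and its core at 29 to 37 falls after the start site, within the transcribed part. A match is a description of letters, and windows without a match (Keap1, Nqo1, Slc7a11, Gpx1 and the remaining windows of Txnrd1) say nothing of elements farther away.

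Clustered by their correlation across genes, the arrays formed 2 sets. The first holds 5 arrays: number 1 of every group and number 2 of the Tln1 groups. The second holds the other 3 (control 2 and number 3 of Tln1 vehicle and of Tln1 VPA), so every group is split over both. Pairs of arrays within the first set held exactly the same deposited value for 4.81% to 6.29% of the 41345 probe sets, and pairs within the second set for 9.09% to 10.5%. Pairs across the sets held the same value for at most 2 probe sets. RMA, the named method, summarises each probe set jointly over the arrays of a run, and the labels do not say which arrays shared a run. Levels set side by side across the sets therefore carry this limit, so comparisons are given over all arrays, then blocked on the set, then inside each set. Values given without 1 array come from fits on group alone, so leaving it out also shifts the balance of the sets between groups. Control has a single array in either set, and the second set has a single array of each group. Cell markers also differed. The 8 measured of 10 podocyte markers averaged 6.86 to 7.65 in first-set arrays against 8.27 to 8.97 in second-set arrays. For 9 proximal tubule markers these means were 11.61 to 11.95 against 10.82 to 11.45. Glomerular endothelial markers (8 of 8 measured, means 8.62 to 9.73) and mesangial markers (7 of 8, means 6.76 to 7.61) were present in every array, as were the tubule markers in this glomerular isolate. Kap, the proximal tubule marker left out of that mean after its values had been seen, is an androgen-dependent transcript and ran from 7.70 to 12.9. The mean of the Y-linked genes Eif2s3y, Kdm5d and Uty was 3.57 in control 1, 4.85 to 6.996 in the Tln1 arrays beside it, and 2.56 to 2.72 in second-set arrays. Xist, the other measured sex-linked transcript, ran from 7.38 (Tln1 vehicle 2) to 10.94 (Tln1 vehicle 3). It stood at 9.66 in Tln1 vehicle 1 and 9.97 in Tln1 VPA 2, so the Y-linked mean does not by itself give the sex of an array.

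Of the 10 genes, 6 were higher in every array of the first set than in any array of the second: Keap1, Nqo1, Gclm, Txnrd1, Srxn1 and Gpx1. The sets were formed by clustering the arrays on these data, and the share of all genes split this way was not counted. The count therefore cannot be read as particular to these genes. The difference between the set means ran from 0.42 for Keap1 to 1.22 for Gclm on the log2 scale. Hmox1 and Slc7a11 were 1.09 and 0.23 higher in the first set with overlapping arrays, and Nfe2l2 and Gclc were 0.19 and 0.12 higher in the second set. The split of those 6 genes ran the same way as the proximal tubule markers and opposite to the podocyte markers, and the part of either in it was not tested. In bulk RNA, fewer cells of a type and less RNA per cell cannot be told apart.

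**Figure D1:**
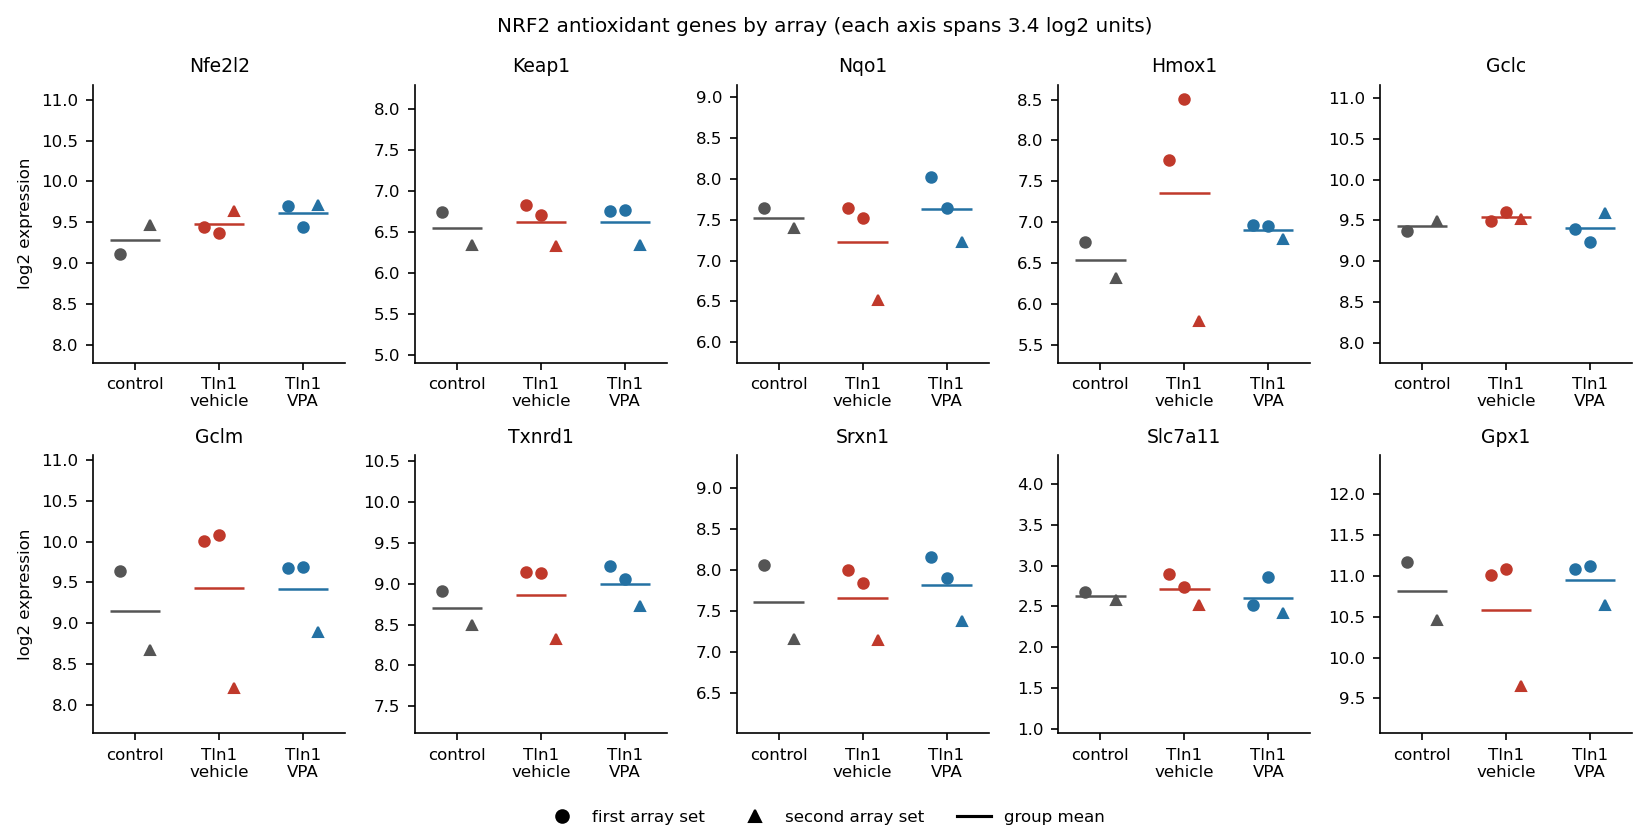
Log2 expression (vertical axes, each spanning 3.4 log2 units) of the 10 genes in the 8 arrays by group; circles are arrays of the first set, triangles of the second, and lines are group means. Hmox1 in Tln1 vehicle runs from 5.80 to 8.51, the widest spread of any gene and group shown, while Keap1 differs between the array sets and hardly between the groups.

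Nfe2l2 stood at 9.11 and 9.47 in control 1 and 2, at 9.45, 9.37 and 9.63 in Tln1 vehicle 1 to 3, and at 9.70, 9.44 and 9.71 in Tln1 VPA 1 to 3. Control was lowest within each array set, although over all arrays Tln1 VPA 2 lay just under control 2, so the groups overlapped. Tln1 VPA was 0.33 above control (SE 0.16, limma adjusted p = 1.00). With the array set as a block the difference was 0.37 (SE 0.10, 95% confidence interval 0.125 to 0.609), which had an unadjusted p of 0.0091 but an adjusted p of 0.42 and so was not called. Within the sets it was 0.46 (first) and 0.25 (second). Tln1 vehicle was 0.20 above control (SE 0.16), with 0.30 and 0.17 in the sets, and Tln1 VPA was 0.13 above Tln1 vehicle (SE 0.15), with 0.16 and 0.08. Without control 1 the difference between Tln1 VPA and control was 0.15, and between Tln1 vehicle and control 0.02.

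Keap1, the inhibitor, stood at 6.75 and 6.35 in the control arrays, at 6.82, 6.71 and 6.33 in Tln1 vehicle 1 to 3 and at 6.75, 6.77 and 6.35 in Tln1 VPA 1 to 3. The groups lay on top of each other within each set. Tln1 VPA and Tln1 vehicle differed by 0.00 (SE 0.19, limma adjusted p = 1.00), with a confidence interval from -0.45 to 0.45 over all arrays. Blocked on the array set, the interval ran from -0.15 to 0.15. The array sets were formed by clustering these same data, so differences inside the wider interval are not excluded. A second Keap1 probe set, with lower values, ran from 4.19 to 4.88 and was split between the array sets in the same way.

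NQO1 reduces quinones, and its gene is a much used readout of NRF2. Nqo1 stood at 7.65 and 7.40 in the control arrays, at 7.65, 7.52 and 6.52 in Tln1 vehicle 1 to 3 and at 8.03, 7.65 and 7.22 in Tln1 VPA 1 to 3. Tln1 vehicle 3 was the lowest array and Tln1 VPA 1 the highest, and control 1, Tln1 vehicle 1 and Tln1 VPA 2 had the same value. Tln1 VPA was 0.41 above Tln1 vehicle (SE 0.33, limma adjusted p = 1.00), and the block interval ran from -0.01 to 0.82. The same-numbered differences were 0.38, 0.13 and 0.71, all upward, and within the sets the difference was 0.255 (first) and 0.71 (second). In a fit without the block it was 0.05 without Tln1 vehicle 3, which leaves Tln1 vehicle no second-set array. Tln1 vehicle was 0.30 below control (change -0.30, SE 0.36), at -0.065 (first set) and -0.89 (second set), and at 0.06 without Tln1 vehicle 3.

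Heme oxygenase 1, which breaks down heme, is the product of Hmox1. Hmox1 stood at 6.76 and 6.32 in the control arrays, at 7.76, 8.51 and 5.80 in Tln1 vehicle 1 to 3 and at 6.97, 6.95 and 6.80 in Tln1 VPA 1 to 3. Tln1 vehicle held both the highest arrays and the lowest, with an SD of 1.40, whereas the SD in Tln1 VPA was 0.09. Tln1 vehicle was 0.82 above control (SE 0.67, 95% confidence interval -0.75 to 2.38, limma adjusted p = 1.00). Blocked on the array set this difference was 0.64 (SE 0.52), and it was 1.38 among first-set and -0.53 among second-set arrays. In fits without the block it was 1.60 without Tln1 vehicle 3 and 0.24 without Tln1 vehicle 2. Tln1 VPA was 0.45 below Tln1 vehicle (change -0.45, SE 0.60), again with opposite signs in the sets (-1.18 and 1.00), and at 0.13 without Tln1 vehicle 2. The same-numbered differences were -0.80, -1.56 and 1.00. The 3 Tln1 VPA arrays all lay above both control arrays, but by only 6.80 against 6.76 at the closest. The difference of 0.37 (SE 0.67), or 0.19 (SE 0.52) blocked on the array set, did not pass.

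Macrophages are a known source of Hmox1 mRNA, and in the Tln1 vehicle arrays with the highest Hmox1 the 10 macrophage and myeloid markers averaged 4.67 and 4.64, the lowest of the 8 arrays. In Tln1 vehicle 3, with the lowest Hmox1, they averaged 5.28. The Y-linked mean was 5.77 and 6.996 in Tln1 vehicle 1 and 2 and 2.72 in Tln1 vehicle 3, and Kap was at 12.59, 12.91 and 8.90. The part of any of these in the result was not tested. The erythroid list cannot serve beside it, since only 1 of its 6 genes, Slc4a1, had a probe set of its own.

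Glutathione is made in a first, limiting step by glutamate-cysteine ligase, whose catalytic chain is encoded by Gclc and whose modifier chain is encoded by Gclm. Gclc stood at 9.37 and 9.50 in the control arrays, at 9.49, 9.60 and 9.52 in Tln1 vehicle 1 to 3 and at 9.39, 9.24 and 9.59 in Tln1 VPA 1 to 3. It had the smallest range of the 10 genes, 0.36 over all arrays, and overlapped in every comparison. Tln1 VPA was 0.13 below Tln1 vehicle (change -0.13, SE 0.12, limma adjusted p = 1.00), with -0.23 among first-set and 0.07 among second-set arrays, and Tln1 vehicle against control was at 0.11 (SE 0.14).

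Gclm stood at 9.64 and 8.67 in the control arrays, at 10.01, 10.08 and 8.21 in Tln1 vehicle 1 to 3 and at 9.68, 9.69 and 8.90 in Tln1 VPA 1 to 3. As with Hmox1, Tln1 vehicle 1 and 2 were the highest arrays and Tln1 vehicle 3 the lowest. The difference between Tln1 vehicle and control was 0.28 (SE 0.59, limma adjusted p = 1.00), or 0.08 (SE 0.23) blocked on the array set. In the sets it was 0.41 and -0.45. That between Tln1 VPA and Tln1 vehicle was -0.01 (SE 0.53), at -0.36 and 0.68 in the sets. In fits without the block the former was -0.20 without control 2 and 0.89 without Tln1 vehicle 3. After each array set's mean was subtracted, Gclm and Hmox1 had a Pearson r of 0.89 over the 8 arrays, and Gclc and Hmox1 one of 0.85. These were the highest among pairs of the 10 genes and were picked after their values were seen. The lowest r of a pair was -0.69 (Srxn1 and Slc7a11), and Hmox1 had 0.045 with Nqo1 and -0.25 with Srxn1. They are given as descriptions of arrays that share their sets and groups.

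Slc7a11 encodes the cystine carrier of the glutamate exchanger xCT, which brings in cystine for glutathione. It ran from 2.42 to 2.89 over the 8 arrays, and its mean lay at the 8.2 percentile of all gene means, so that its values may hold little signal. The largest of its differences over all arrays was -0.11 (SE 0.16) for Tln1 VPA against Tln1 vehicle (limma adjusted p = 1.00 in each comparison), and a second probe set ran from 2.21 to 2.70.

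Gpx1 encodes glutathione peroxidase 1, a selenoprotein that reduces peroxides with glutathione and is less tightly tied to NRF2 than the other enzymes. It stood at 11.16 and 10.46 in the control arrays, at 11.02, 11.08 and 9.65 in Tln1 vehicle 1 to 3 and at 11.08, 11.12 and 10.65 in Tln1 VPA 1 to 3. In the first set all 5 arrays lay within 11.02 to 11.16, and only in the second set did the groups stand apart, with Tln1 vehicle 3 lowest. Tln1 VPA was 0.37 above Tln1 vehicle (SE 0.40, limma adjusted p = 1.00), at 0.05 and 1.00 in the sets. In a fit without the block it was -0.10 without Tln1 vehicle 3. In the second set the 9 proximal tubule markers had means of 11.45 (control 2), 10.82 (Tln1 vehicle 3) and 10.94 (Tln1 VPA 3).

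Thioredoxin reductase 1 keeps thioredoxin reduced, and sulfiredoxin 1 repairs overoxidised peroxiredoxins. Txnrd1 stood at 8.91 and 8.50 in the control arrays, at 9.15, 9.13 and 8.32 in Tln1 vehicle 1 to 3 and at 9.21, 9.05 and 8.72 in Tln1 VPA 1 to 3. The Tln1 VPA arrays lay above control within each set, by 0.23 (first) and 0.22 (second). Over all arrays that difference was 0.29 (SE 0.28, limma adjusted p = 1.00), and 0.20 (SE 0.12) after blocking on the array set.

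Srxn1 stood at 8.07 and 7.16 in the control arrays, at 8.00, 7.84 and 7.14 in Tln1 vehicle 1 to 3 and at 8.16, 7.90 and 7.38 in Tln1 VPA 1 to 3. Control and Tln1 vehicle differed by 0.05 (SE 0.37, limma adjusted p = 1.00), or by -0.08 (SE 0.11) with the array set as a block. Tln1 VPA lay 0.16 above Tln1 vehicle (SE 0.33), with 0.17, 0.07 and 0.24 for the same-numbered arrays, all upward. Within the sets that difference was 0.12 (first) and 0.24 (second). In fits without the block it was -0.10 without Tln1 vehicle 3 and -0.02 without Tln1 VPA 1.

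Across the 10 genes, none passed the test in any comparison. For Tln1 vehicle against control, limma called 0 of 10 at an adjusted p below 0.05 (0.00% of all genes, also 0.00% when blocked on the array set), and 0 of 10 had an unadjusted p below that level in either fit (1.45% and 7.30% of all genes). Higher values were seen for 8 genes and lower ones for Nqo1 and Gpx1, with a median change of 0.10 beside 0.02 over all genes. Blocked on the array set, 7 were higher (10755 of all 22180) and the median was 0.059 (-0.005 over all genes). In the first set 7 were higher (10197 of all genes), with a median of 0.156. In the second set 2 were higher (10070 of all genes), with a median of -0.118. In fits without the block the median was -0.084 without control 2 and -0.003 without Tln1 vehicle 1. Arrays did not overlap for 0 genes (4.78% of all genes higher, 3.59% lower). In both array sets Nfe2l2 and Gclc were higher (2 of 10, 20.8% of all genes) and Nqo1, Srxn1 and Gpx1 lower (3 of 10, 22.5%), shares near those of all genes.

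Valproic acid was tested by setting Tln1 VPA against Tln1 vehicle, where limma again called 0 of 10 (0.00% of all genes, and 0.00% with the block), with 0 of 10 at an unadjusted p below 0.05 in either fit (1.26% and 5.43%). Of the genes, 6 were higher and 4 lower, with a median change of 0.065 beside 0.003 over all genes. The median was -0.006 among first-set arrays and 0.32 for Tln1 VPA 3 against Tln1 vehicle 3, and it was -0.141 without Tln1 vehicle 3 and -0.041 without Tln1 VPA 1. Arrays did not overlap for 0 genes (1.98% higher, 1.57% lower). Higher in both sets were Nfe2l2, Nqo1, Srxn1 and Gpx1 (4 of 10, 22.4% of all genes), and lower in both was Slc7a11 (1 of 10, 20.4%).

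The comparison of Tln1 VPA with control called 0 of 10 (0.00%, and 0.00% with the block). At an unadjusted p below 0.05 there were 0 of 10 over all arrays (1.87% of all genes) and 1 of 10, Nfe2l2, with the block (8.12%). Hmox1 was the 1 gene whose Tln1 VPA arrays all lay above control (5.57% of all genes), and 0 lay below (3.98%). In both sets Nfe2l2, Hmox1, Gclm and Txnrd1 were higher (4 of 10, 22.4% of all genes), and 0 of 10 were lower (22.9%). The median change was 0.17 over all arrays beside 0.02 for all genes, 0.04 with the block and -0.047 without control 2. The comparisons share their control or Tln1 vehicle arrays, so these counts are not independent of each other.

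**Figure D2:**
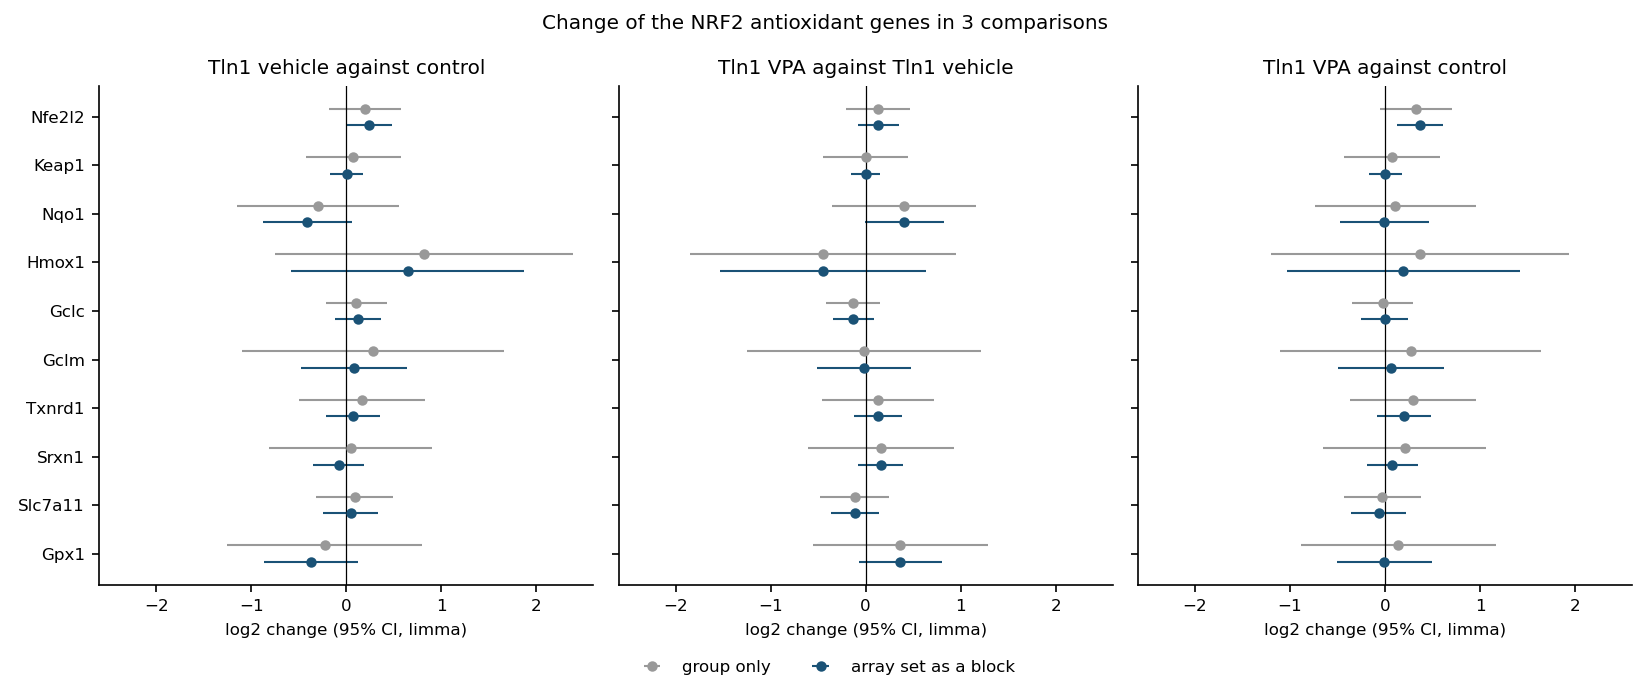
Log2 change with its 95% confidence interval (horizontal axes) of the 10 genes in the 3 comparisons, from limma with group alone (grey) or blocked on the array set (blue). Every grey interval holds 0, and of the blue intervals only that of Nfe2l2 for Tln1 VPA against control, 0.125 to 0.609, does not.

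A list of 46 other genes reported as NRF2 targets was read beside the 10, of which 35 had a probe set of their own. For Tln1 vehicle against control, limma called 0 of 35, with 2 at an unadjusted p below 0.05 (1.45% of all genes) and 8 after blocking on the array set (7.30% of all genes), every one of them lower. Of the list, 13 were higher and 22 lower over all arrays, beside 12339 higher and 9841 lower among all genes. No gene of the list was higher in both array sets and 20 were lower in both, beside the 20.8% and 22.5% of all genes given above. In the second set, proximal tubule markers were lower in Tln1 vehicle 3 than in control 2. In the first set the 9 proximal tubule markers averaged 11.95 in control 1 and 11.87 and 11.91 in Tln1 vehicle 1 and 2, while the target list averaged 8.02, 7.85 and 7.81. Loop, distal and collecting duct markers (6 of 6 measured) averaged 10.99 in control 1 and 10.66 and 10.32 in Tln1 vehicle 1 and 2. In the second set they went the other way, at 10.79 in control 2 and 11.21 in Tln1 vehicle 3. The 7 measured mesangial markers averaged 7.21 to 7.61 in the Tln1 vehicle arrays, all above the control arrays at 6.96 and 6.76. The Y-linked mean also differed between those arrays. The part of these in the result was not tested.

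Gsta4 and Gsta3 had the smallest p values of the list in that comparison. Both encode glutathione S-transferases, which join glutathione to electrophiles. Gsta4, whose enzyme acts on lipid aldehydes, stood at 10.77 and 9.98 in the control arrays, at 9.77, 8.53 and 9.30 in Tln1 vehicle 1 to 3 and at 9.56, 9.27 and 9.62 in Tln1 VPA 1 to 3. Both Tln1 groups lay wholly below control, as was so for 3 of the 35 targets in Tln1 vehicle (3.59% of all genes) and 2 in Tln1 VPA (3.98%). The change of Gsta4 against control was -1.18 (SE 0.37) for Tln1 vehicle and -0.89 (SE 0.37) for Tln1 VPA, with unadjusted p values of 0.0143 and 0.0453 (limma adjusted p = 1.00 for each, not called). In Tln1 vehicle it was -0.78 without control 1 and -0.84 without Tln1 vehicle 2, and in Tln1 VPA -0.49 without control 1. Gsta3 stood at 7.64 and 7.65 in the control arrays, at 7.37, 7.10 and 6.78 in Tln1 vehicle 1 to 3 and at 7.33, 7.05 and 7.33 in Tln1 VPA 1 to 3. Its arrays did not overlap either, and its changes were -0.56 and -0.41 (SE 0.19 each, limma adjusted p = 1.00). Gsta4 was lowest in Tln1 vehicle 2, the array with the highest Y-linked mean, and Gsta3 in Tln1 vehicle 3, where that mean was 2.72. A link of either gene to the Y-linked mean was not tested.

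Cbr1, a carbonyl reductase, was at -0.93 (SE 0.47) and Abcc4, an efflux carrier, at -0.26 (SE 0.18) for Tln1 vehicle against control. Without control 1 Cbr1 was at -0.28 and Abcc4 at -0.47, and without control 2 they were at -1.59 and -0.05. When blocked on the array set, the 8 genes with an unadjusted p below 0.05 were Gsta3, Gsta4, Gstm1, Gstm4, Gstp1, Mgst1, Cbr1 and Cbr3, of which those outside the naming rule were picked after their values were seen. Their block changes ran from -1.19 for Gsta4 to -0.26 for Gstm4, and their adjusted p values lay between 0.49 and 0.64.

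For Tln1 VPA against Tln1 vehicle, 26 of the 35 targets were higher and 9 lower, beside 11386 and 10761 of all genes. The median change was 0.078, beside 0.003 over all genes. In the first set 19 were higher (11424 of all genes), with a median of 0.046. Between Tln1 VPA 3 and Tln1 vehicle 3, the only such arrays of the second set, 24 were higher (9795 of all genes), with a median of 0.242. In both sets 11 were higher and 2 lower, beside 22.4% and 20.4% of all genes. Limma called 0, with 0 at an unadjusted p below 0.05 (1.26% of all genes). Blocked on the array set, 2 of 35 had such a p, near the share of all genes (5.43%): Mgst1, a membrane-bound glutathione transferase (0.34, SE 0.08, adjusted p = 0.80), and Gstp1, a cytosolic one (0.45, SE 0.13, adjusted p = 0.88). Within the first and second set Mgst1 was at 0.36 and 0.28, and Gstp1 at 0.53 and 0.285. The values that follow, with an array left out, come from fits without the block. Mgst1 was at 0.22, 0.17 and 0.62 without Tln1 vehicle 1, 2 and 3, and at 0.51 and 0.08 without Tln1 VPA 2 and 3. Gstp1 was at 0.16 without Tln1 vehicle 3, and at 0.24, 0.29 and 0.82 without Tln1 VPA 1, 2 and 3. Akr1b8, an aldo-keto reductase, was at 0.45 (SE 0.25), and its Tln1 VPA arrays (4.06, 3.20 and 3.21) all lay above those of Tln1 vehicle (3.14, 3.07 and 2.93), the 1 target of 35 with this pattern (1.98% of all genes). It was at 0.16 without Tln1 VPA 1. Its values, from 2.83 to 4.06 over the 8 arrays, all lay below the median gene mean of 4.92 and may hold little signal. Cbr1 was at 0.52 (SE 0.42), or 0.26 without Tln1 vehicle 2 and 0.90 without Tln1 vehicle 1. Parietal epithelial markers (6 of 6) averaged 6.97 to 7.21 in the Tln1 VPA arrays, all above the 6.64 to 6.94 of Tln1 vehicle. Macrophage markers were higher in each same-numbered Tln1 VPA array (5.16 against 4.67, 4.84 against 4.64 and 5.90 against 5.28), and the part of either list was not tested. Relative to control, 16 targets in Tln1 VPA were higher and 19 lower, limma called 0, and 1 of 35 had an unadjusted p below 0.05 (1.87% of all genes), or 3 with the block (8.12%), near the shares of all genes. Besides Gsta4 and Gsta3, the smallest p values there belonged to Akr1b8 (0.46, SE 0.27) and the glutathione peroxidase gene Gpx2 (-0.31, SE 0.23). Akr1b8 was at 0.18 without Tln1 VPA 1 and 0.27 without control 2, and Gpx2 at -0.11 without Tln1 VPA 2 and -0.54 without Tln1 VPA 1. Gpx2 ran from 2.94 to 3.80, also below the median gene mean.

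**Figure D3:**
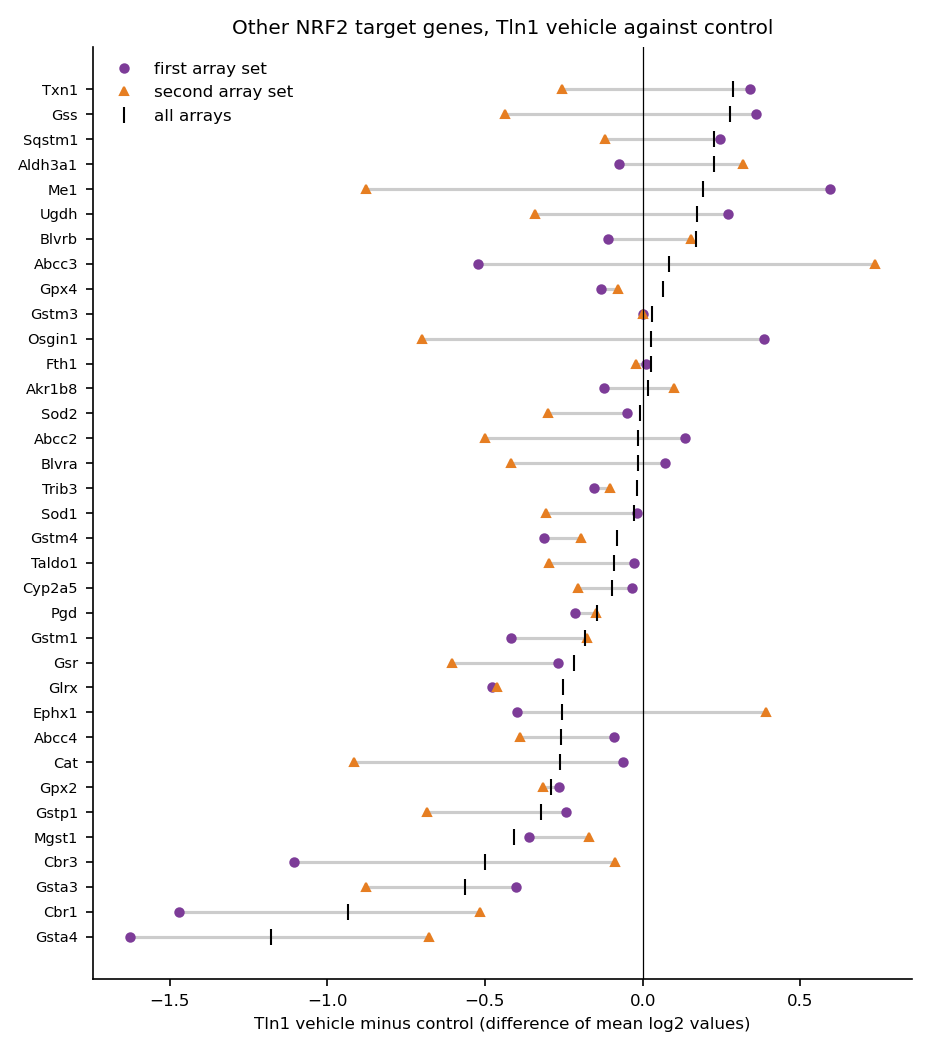
Difference of mean log2 values, Tln1 vehicle minus control (horizontal axis), for 35 other NRF2 targets, with circles for the first array set, triangles for the second and ticks for all arrays. No gene lies above 0 in both sets and 20 lie below 0 in both, with Gsta4 lowest at -1.18 over all arrays.

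The partners of NRF2 and the proteins that govern its turnover were measured for 15 of 16 listed genes. Limma called 0 of 15 in each comparison (0.00% of all genes), with 0 at an unadjusted p below 0.05 in either fit. Of all genes, 1.45% (7.30% with the block) had such a p for Tln1 vehicle against control. The shares were 1.26% (5.43%) for Tln1 VPA against Tln1 vehicle and 1.87% (8.12%) for Tln1 VPA against control. With 15 genes, counts of 0 are near these shares. For Tln1 vehicle against control the smallest p values belonged to Bach2, a repressor that competes at MAF sites (-0.16, SE 0.19), Gsk3b, a kinase that promotes NRF2 breakdown (0.10, SE 0.13), Mafg, a small MAF partner (0.11, SE 0.16), and Cul3, the ligase scaffold used by KEAP1 (0.10, SE 0.17). Between Tln1 VPA and Tln1 vehicle, Btrc, which recognises NRF2 for a second ubiquitin ligase, was at -0.18 (SE 0.14), Hdac3, a class I histone deacetylase, at 0.11 (SE 0.14), Bach2 at -0.11 (SE 0.17) and the ligase gene Syvn1 at -0.07 (SE 0.12). Set against control, Tln1 VPA had Bach2 at -0.27 (SE 0.19), Btrc at -0.21 (SE 0.15), Syvn1 at -0.14 (SE 0.13) and Mafk, another small MAF, at 0.13 (SE 0.16).

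**Figure D4:**
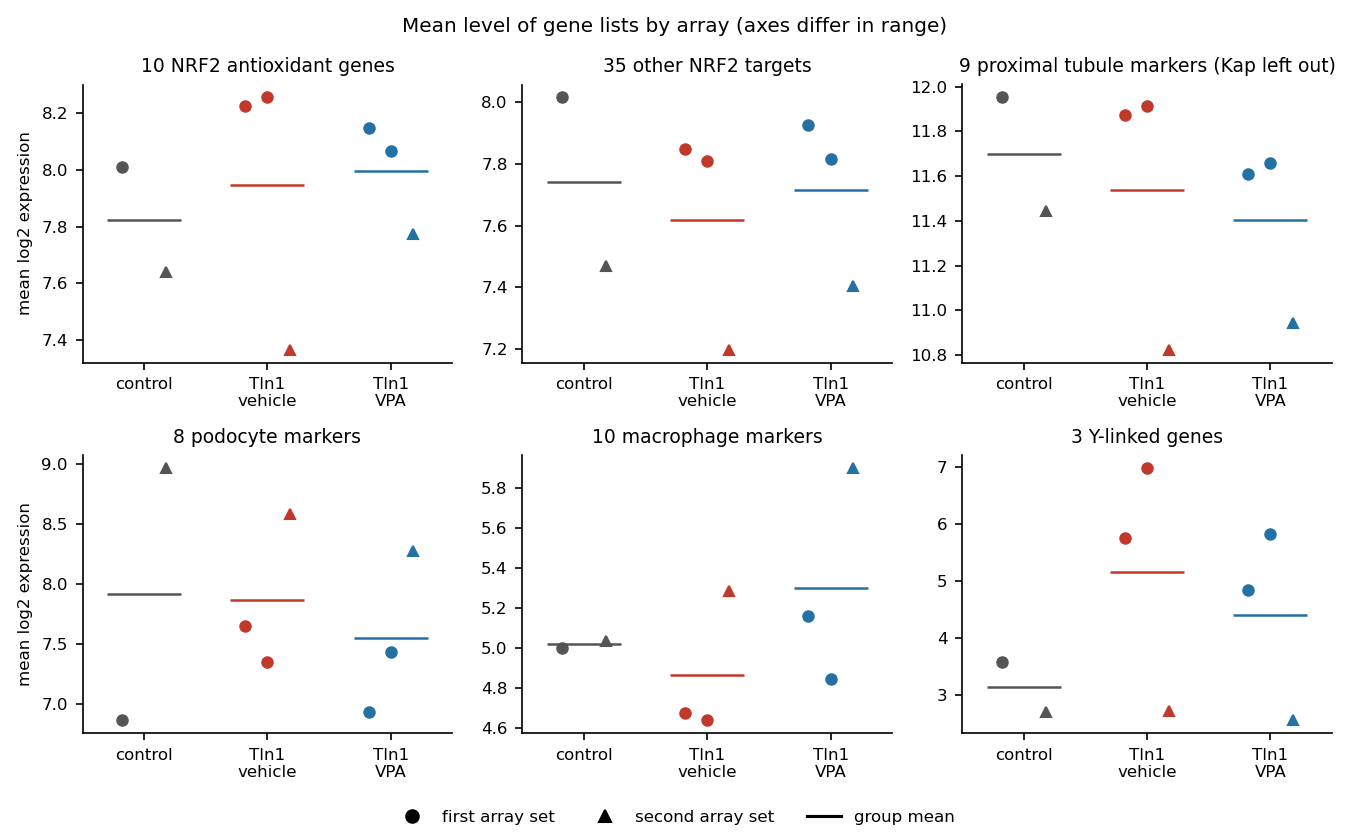
Mean log2 expression (vertical axes, which differ in range) of 5 gene lists and 3 Y-linked genes in each array by group; circles are the first array set, triangles the second, and lines are group means. The NRF2 genes and the proximal tubule markers (drawn without Kap) are lowest in Tln1 vehicle 3, where podocyte markers are at 8.58.

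The genes most like Nfe2l2 and Nqo1 across the arrays were ranked by Pearson r over the 8 arrays after each array set's mean was removed, among genes above the median gene mean. For Nfe2l2 they were Ttr, the gene of transthyretin (r = 0.98), Fam160a2 (0.98) and Trim2 (0.98). For Nqo1 they were Mrps35, a mitochondrial ribosomal protein gene (0.99), Usp3, a ubiquitin protease gene (0.99), and Klhl9 (0.98). Usp3, like Nqo1, was lowest in Tln1 vehicle 3 (7.06) and highest in Tln1 VPA 1 (7.51). With 8 arrays in 2 sets and so many genes, such values come easily, and they are given as a description.

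Tln1 itself stood at 8.97 and 8.64 in the control arrays, at 8.95, 8.95 and 8.60 in Tln1 vehicle 1 to 3 and at 8.76, 8.88 and 8.59 in Tln1 VPA 1 to 3. Where its probe set lies on the gene, inside or outside the deleted stretch, cannot be read from the files. Podocytes make up only a share of the isolate, and these values therefore check no label.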

How the data were processed

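The deposited values are on a log2 scale. RMA and limma are the tools that the submitters' processing notes list, without versions. Genome build: not given in the sources used here. The table holds 41345 probe sets on 8 arrays, with values between 1.49 and 13.9, not centred per gene. The platform annotation gave 1 symbol for 23521 probe sets, several for 1814 and none for 16010. Per symbol the probe set with the highest mean was kept, and list genes without a single-symbol probe set were skipped. The 3 comparisons came from 1 limma fit over all genes (lmFit and eBayes, group as the term, R 4.3.3, limma 3.58.1, two-sided), with Benjamini-Hochberg adjustment and calls below 0.05; it was tested on simulated data. Array sets are the 2 clusters of average linkage on 1 minus the correlation. Deviations from the group mean correlated between Tln1 vehicle and Tln1 VPA arrays of equal number (r = 0.570, 0.609 and 0.787). Every r was above 0.1, the level set for a fit with the replicate number as a block. These arrays of equal number also lie in the same array set, so the r values cannot show pairing, and the labels state none. For control the numbers gave r between -0.591 and 0.609, the lowest for control 2 and Tln1 vehicle 2, which lie in different sets. All 10 members are named, and of the other lists the 4 genes with the smallest p per comparison. Members and lists were chosen with earlier results of these data known. Figures were drawn with matplotlib 3.10.9.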

Additional observations from a re-analysis of the deposited data

How the results depend on the processing

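No member was called in any comparison under the 16 alternatives (lowest adjusted p 0.36). Of 397 member values, 47 changed sign, 33 of them when an array was left out. Fits that left out an array held group alone, so each also changed the balance of the array sets within a group. The cause of the sign changes was not tested, and with groups of 2 or 3 arrays their number limits the precision. Slc7a11 has no value among genes above the median gene mean. The first set alone was chosen after seeing the data. With the replicate number as a block (replicate block), Gpx1 in Tln1 vehicle against control was at 0.08 and Slc7a11 in Tln1 VPA against control at 0.07. This block changed no call.

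When probe sets of 1 symbol were averaged, Slc7a11 was at -0.01 (Tln1 vehicle against control) and Keap1 at -0.03 (Tln1 VPA against Tln1 vehicle). After quantile normalisation, Keap1 was at -0.02 and Gclm at 0.02 in the latter comparison. With the array set as a block, Srxn1 was at -0.08 in Tln1 vehicle against control, and Nqo1 and Gpx1 at -0.01 each in Tln1 VPA against control. In the first set alone, Srxn1 was at -0.15 and Bach2 at 0.22 (Tln1 vehicle against control), the median of the members at -0.006 and Keap1 at -0.01 (Tln1 VPA against Tln1 vehicle), and Srxn1 at -0.03, Slc7a11 at 0.01, Gpx1 at -0.06 and Btrc at 0.01 (Tln1 VPA against control).

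Leaving out 1 array at a time, values for Tln1 vehicle against control ran from -0.084 to 0.228 for the median of the members, -0.13 to 0.28 for Keap1, -0.51 to 0.06 for Nqo1, -0.20 to 0.89 for Gclm, -0.04 to 0.43 for Txnrd1, -0.41 to 0.50 for Srxn1, -0.58 to 0.24 for Gpx1, -0.42 to 0.10 for Bach2, -0.02 to 0.23 for Cul3, -0.04 to 0.24 for Gsk3b and -0.01 to 0.22 for Mafg. For Tln1 VPA against Tln1 vehicle they ran from -0.141 to 0.193 for the median, -0.14 to 0.14 for Keap1, -1.23 to 0.13 for Hmox1, -0.62 to 0.31 for Gclm, -0.14 to 0.27 for Txnrd1, -0.10 to 0.37 for Srxn1, -0.10 to 0.62 for Gpx1 and -0.14 to 0.01 for Syvn1. For Tln1 VPA against control they ran from -0.047 to 0.384 for the median, -0.13 to 0.28 for Keap1, -0.09 to 0.31 for Nqo1, -0.12 to 0.06 for Gclc, -0.21 to 0.75 for Gclm, -0.25 to 0.66 for Srxn1, -0.16 to 0.06 for Slc7a11, -0.21 to 0.49 for Gpx1 and -0.03 to 0.30 for Mafk. Where control 1 or 2 was left out, the lone control array is assumed to vary like the other groups.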
